A study of Mus musculus with 10 samples.

Results

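The motile cilium and axoneme genes examined here were 43 genes taken from a list of names that uses no measured value, out of the 54532 genes of a bulk RNA-sequencing table of mouse lungs. Of these members, 41 were found under their present symbol and 2 (Dnai1 and Dnai2) under an older one. The study compared the IncPBF group, in which pups underwent fistula surgery between the abdominal aorta and the inferior vena cava at P7 to increase pulmonary blood flow, with the sham group, which had the same anesthesia and laparotomy without the puncture. Each group had 5 lungs, numbered 1 to 5 and collected at P14, from wild-type C57/BL6 pups of either sex. Nothing in the labels gives the lobe, litter or sex of a lung, and nothing says whether each lung came from a separate pup, so p values measure the spread between these lungs. Expression is given in FPKM, a fragment count scaled by library size and by gene length, which allows levels to be compared between genes.

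Motile cilia are the beating cilia that cover the multiciliated cells of the conducting airways and move mucus towards the throat. Their core, the axoneme, is a ring of microtubule doublets around a central pair, with dynein arms as motors, radial spokes that connect the ring to the central pair, and a nexin-dynein regulatory complex that links neighbouring doublets. The program is switched on in steps: Gmnc and Mcidas start the formation of multiciliated cells and the mass production of centrioles, and Foxj1 together with RFX factors turns on the genes of the axoneme. Loss of many of these genes causes primary ciliary dyskinesia in humans. In a whole lung, multiciliated cells are a small part of the tissue, and bulk values cannot tell fewer such cells from less RNA per cell.

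The lungs had 16103423 to 20318525 fragments on genes, and 1 fragment on a gene of 1 kb stood for 0.0482 to 0.0580 FPKM. Xist, the RNA of the silenced X chromosome, was at 52.4 to 66.5 FPKM in IncPBF lungs 2 to 5. In IncPBF lung 1 and all sham lungs it was at most 0.0770 FPKM. Ddx3y, a gene of the Y chromosome, was at most 0.0093 FPKM in IncPBF lungs 2 to 5. It was at 18.6 to 24.6 FPKM in IncPBF lung 1 and the sham lungs. Apart from IncPBF lung 1, sex therefore cannot be told apart from the surgery, for any gene. Counting intervals and limits given here cover counting error only.

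Sham lung 5 stood apart from the other 9 lungs in the members. Foxj1 (ENSMUSG00000034227, chromosome 11 of GRCm38, 116330704 to 116335399), the transcription factor that drives motile ciliogenesis, was at 10.8, 11.4, 8.58, 16 and 7.84 FPKM in IncPBF lungs 1 to 5 against 8.98, 9.53, 16.7, 6.56 and 0.285 FPKM in sham lungs 1 to 5. Sham lung 5 thus held 3.07% of the median of sham lungs 1 to 4, on 13 fragments (exact 95% Poisson interval 6.92 to 22.2) where each other lung had at least 329. The remaining 4 sham lungs overlapped with the 5 IncPBF lungs.

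Most members followed Foxj1 in that lung. Of the 39 members with a mean of at least 0.5 FPKM, 35 (89.7%) were lowest in sham lung 5, which was the lowest lung for 14.1% of all 15388 genes at that level. For 26 of the 39 (66.7%), sham lung 5 was under 25% of the median of sham lungs 1 to 4, against 2.01% of all genes, and the median over the members was 9.59%. No fragment at all was found there on Spag6l of the central pair, Sntn of the ciliary tip, Pifo or Ccdc153, where the other lungs had at least 45, 20, 26 and 130 fragments. A count of 0 allows up to 0.0378 FPKM for Spag6l, 0.139 for Sntn, 0.153 for Pifo and 0.0846 for Ccdc153. In all, 12 of the 43 members had 3 fragments or fewer in sham lung 5, and none did in any other lung.

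**Figure D1:**
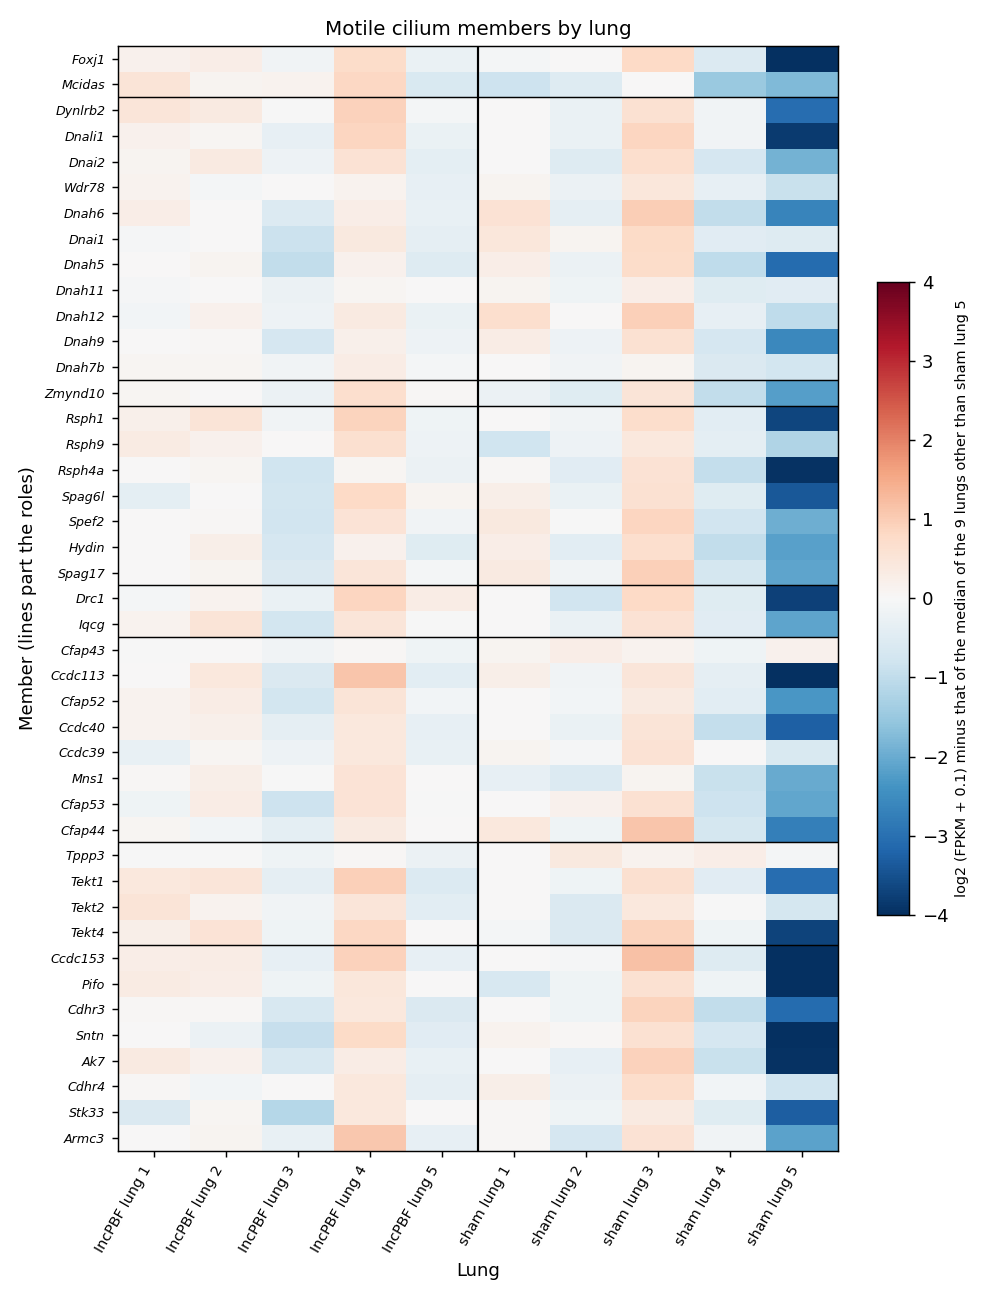
The heat map gives log2(FPKM + 0.1) of each of the 43 members in each of the 10 lungs, less that of the member's median over the 9 lungs other than sham lung 5, with lines between the roles. Blue fills the column of sham lung 5 for nearly all members, with Tppp3 and Cfap43 as exceptions, and IncPBF lung 4 and sham lung 3 are the reddest columns.

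A subset of members was not low in sham lung 5, and 9 of the 39 were above 50% of the median of sham lungs 1 to 4 there. These were Cfap43 (102%), Tppp3 (82.2%), Dnah11 (70.2%), Tekt2 (60.6%), Ccdc39 (59.8%), Dnai1 (53.5%), Wdr78 (51.8%), Rsph9 (51.7%) and Cdhr4 (50.7%). In the table's gene models, 8 of the 39 members are overlapped on the opposite strand by another gene with a mean of at least 0.5 FPKM, and 6 of these 8 (75%) belong to the 9, against 3 of the other 31 (9.68%). Examples are Cfap43, which is overlapped by Gsto1 with a mean of 27.5 FPKM, Rsph9 with Mrps18a (6.41 FPKM), Wdr78 with Mier1 (8.68 FPKM) and Dnai1 with Enho (9.90 FPKM). Other overlapped members were low in sham lung 5. Dnali1, with Gnl2 (10.8 FPKM), was at 3.95% there, and Iqcg, which shares 2965 bases with Lrch3 (4.45 FPKM), at 13.3%. Spag17, too low to be tested, shares 5143 bases with Wdr3 (5.78 FPKM) and had 1 fragment there. The median over the 8 overlapped members was 52.6% and that over the other 31 was 6.33%. Whether fragments were counted by strand is not given in the sources used here, so reads of the shared stretches cannot be assigned to one gene here. Those stretches run from 15 bases (Dnai1 with Enho) and 166 bases (Wdr78 with Mier1) to 6876 bases (Rsph9 with Mrps18a) and 9821 bases (Cfap43 with Gsto1), so the overlap is short for some of these members, and its part in their values was not tested. The overlaps were examined after the values were seen. Tppp3, a tubulin-binding protein that is also made outside ciliated cells, has no such partner and was at 104 FPKM in sham lung 5.

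Some other genes of the conducting airway were low in the same lung. The 22 club and airway secretory genes summed to 907 FPKM in sham lung 5, where the other sham lungs had 7057 to 14649 and the IncPBF lungs 6457 to 12564 FPKM. Not all of them followed. Of the 15 tested, 7 were lowest in sham lung 5 (14.1% of all genes). There 6 of the 15 were above 50% of the median of sham lungs 1 to 4, and the median over the 15 was 40.5%. Scgb1a1, the secretoglobin that defines club cells, was at 128 FPKM there and at 4802 to 11743 FPKM in the other 9 lungs, and Scgb3a2 was at 3.92 FPKM against 106 to 439 FPKM. Mesothelial genes, which mark the pleural surface, went the other way, since their sum was 103 FPKM in sham lung 5, 40.6 to 62.4 FPKM in the other sham lungs and 20.7 to 45.6 FPKM in the IncPBF lungs. The sums of 7 pan-epithelial genes (267 FPKM), 8 alveolar type 1 genes (2200 FPKM) and 8 alveolar type 2 genes (14397 FPKM) in that lung lay within or next to the range of sham lungs 1 to 4 (279 to 296, 1663 to 2229 and 13639 to 16866 FPKM). Airway basal genes summed to 0.607 FPKM in sham lung 5 and 1.53 to 2.62 FPKM elsewhere, and neuroendocrine genes to 0.820 and 1.13 to 2.22 FPKM, both lowest there. These sums lie near the floor. In each of these lists only 1 of 8 genes was tested, and 6 had 3 fragments or fewer in sham lung 5. The 1 neuroendocrine gene tested was at 83.5% of the median of sham lungs 1 to 4 there. The 12 airway cartilage genes summed to 22.3 to 27.2 FPKM in all lungs. The part of these differences in the members' values was not tested.

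**Figure D2:**
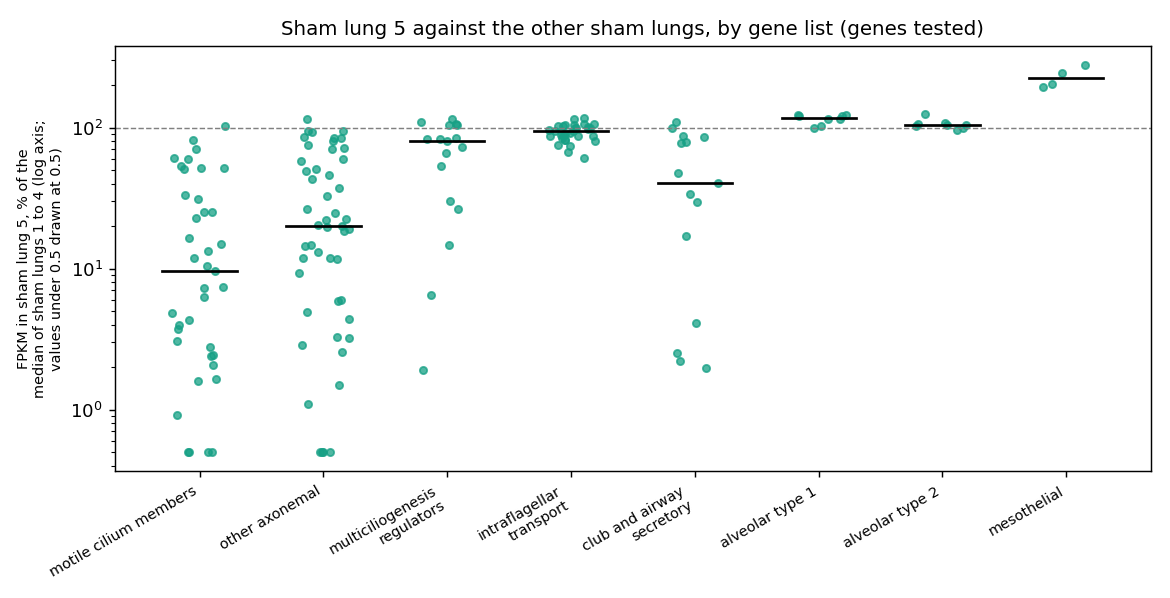
Each point is a gene with a mean of at least 0.5 FPKM, placed by its FPKM in sham lung 5 as a percent of the median of sham lungs 1 to 4 on a log axis, and the bars are medians of the lists. The members (median 9.59%) and the other axonemal genes (19.99%) lie far below 100%. The intraflagellar transport genes (94.4%) and the alveolar type 1 and type 2 genes (118% and 104%) lie near it, and the mesothelial genes (225%) lie above it. The club and airway secretory genes have a median of 40.5%, with 6 of 15 above 50%.

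Among the other 9 lungs the members also rose and fell together. With each member set to its own median over these 9 lungs as 100%, the median member was at 145% in IncPBF lung 4 and 159% in sham lung 3, at 69.4% in sham lung 4 and 79.3% in IncPBF lung 3, and at 84.6 to 110% in the other 5. IncPBF lung 4 or sham lung 3 was the highest lung for 36 of the 39 members (92.3%), against 20.02% of all genes, and each group thus supplied 1 of the extremes. Sham lung 4 or IncPBF lung 3 was the lowest of the 9 for 26 members (66.7%), against 19.2% of all genes. The coefficient of variation had a median over the members of 29.4% in the IncPBF group, 64.8% in the sham group and 39.9% in sham lungs 1 to 4, where all genes had 9.12%, 11.8% and 11.5%. Most club and airway secretory genes shared these extremes. Sham lung 3 was highest for 10 of 15 and IncPBF lung 4 for 2, together 80%. IncPBF lung 3 was the lowest of the 9 for 11 of 15 and sham lung 4 for 2, together 86.7%. Over all 15388 genes, sham lung 3 was highest for 1238 and IncPBF lung 4 for 1842.

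Since the members moved together between lungs, the 250 bases upstream of their RefSeq starts (GRCm38.p6) were searched on both strands for GTTGCC, the half-site bound by RFX factors, and for TGTTTAC, a core bound by forkhead factors such as Foxj1. An upstream sequence was found for 36 of the 43 members, with none for Foxj1, Rsph1, Rsph4a, Cfap53, Tppp3, Wdr78 and Stk33. GTTGCC was present in 15 of the 36 (41.7%) and in 10.4% of all 32851 sequences of that length. At least 2 matches were present in 4 members (11.1%) and in 0.740% of all sequences. TGTTTAC was present in 3 members (8.33%), Ak7, Sntn and Cfap43, and in 3.17% of all sequences, and the RefSeq start of Cfap43 lies 81938 bases from its gene start in the deposited table. Matches to the motifs were counted separately, and a match is a description of the sequence. The 3 members with 2 matches and the highest mean FPKM among those are shown, with the matches to GTTGCC or its reverse complement in capitals. Tekt1 and Tekt2 encode tektins, filaments inside the doublet, and Cfap44 a protein that tethers inner dynein heads. The sequences run 5′ to 3′ along the gene and come from the minus strand for Tekt1 (chr11:72361883-72362132) and Tekt2 (chr4:126325689-126325938) and from the plus strand for Cfap44 (chr16:44394549-44394798). The RefSeq start of Tekt1 lies 560 bases inside the gene of the deposited table, so all bases shown for it lie within that gene, and the last 3 bases shown for Cfap44 lie inside its gene there.
Tekt1: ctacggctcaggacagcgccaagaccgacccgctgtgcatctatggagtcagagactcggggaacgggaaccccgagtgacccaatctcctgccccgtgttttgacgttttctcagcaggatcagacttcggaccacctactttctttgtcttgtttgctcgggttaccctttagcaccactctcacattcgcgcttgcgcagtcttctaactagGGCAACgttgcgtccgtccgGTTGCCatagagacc
Tekt2: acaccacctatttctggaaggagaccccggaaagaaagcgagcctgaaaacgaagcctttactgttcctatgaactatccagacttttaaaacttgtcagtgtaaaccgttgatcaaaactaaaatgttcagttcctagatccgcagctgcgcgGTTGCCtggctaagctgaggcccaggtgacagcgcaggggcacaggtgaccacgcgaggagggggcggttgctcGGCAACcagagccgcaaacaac
Cfap44: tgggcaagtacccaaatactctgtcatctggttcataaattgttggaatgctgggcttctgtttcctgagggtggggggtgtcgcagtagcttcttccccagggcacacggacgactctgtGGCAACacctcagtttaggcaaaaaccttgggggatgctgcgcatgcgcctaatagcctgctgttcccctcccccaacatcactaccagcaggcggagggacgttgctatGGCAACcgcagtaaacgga

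Between the groups, 1 of the 39 members tested, Mcidas, was called higher in the IncPBF lungs, and none was called lower. Over all genes tested, 16.1% (2480) were called higher and 16.2% (2490) lower at an adjusted p under 0.05. The members held fewer calls than this background. Their spread between lungs was wider than that of all genes, which makes calls less likely, so the low count does not show stable expression. Limma-voom on fragments recovered from FPKM called 3653 genes higher and 1863 lower, with Mcidas and Mns1 higher among the members. The test was limma on log2(FPKM + 0.1), with Benjamini-Hochberg adjustment over all 15388 genes. An unadjusted p under 0.05 was reached by 4 members, which were Mcidas, Mns1, Rsph9 and Tppp3. The groups overlapped for all 39, where they did not overlap in 12.0% of all genes with the IncPBF group higher and in 11.2% with it lower. The median log2 fold change of the members was 0.58 (0.01 over all genes), and 34 of 39 were above 0.

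That median rested on sham lung 5. With this lung left out, the median log2 fold change was 0.03, 22 of 39 members were above 0, none was called higher and Tppp3 was called lower. In those 9 lungs 13.5% of all genes were called higher and 13.0% lower. For Foxj1, the log2 fold change was 1.04 (SE, the standard error, 0.83, adjusted p = 0.367 in limma, exact permutation p = 0.373, two-sided) in 10 lungs and 0.10 (SE 0.26, adjusted p = 0.813) in 9. Leaving out sham lung 3 instead gave 4 members called higher, Mcidas (adjusted p = 0.0166), Rsph9 (0.0139), Mns1 (0.0219) and Zmynd10 (0.0380). Leaving out sham lung 4 gave Cfap43 called lower (adjusted p = 0.0272). The shares of all genes called without sham lung 3 or sham lung 4 are not given here, so these counts cannot be set against a background.

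**Figure D3:**
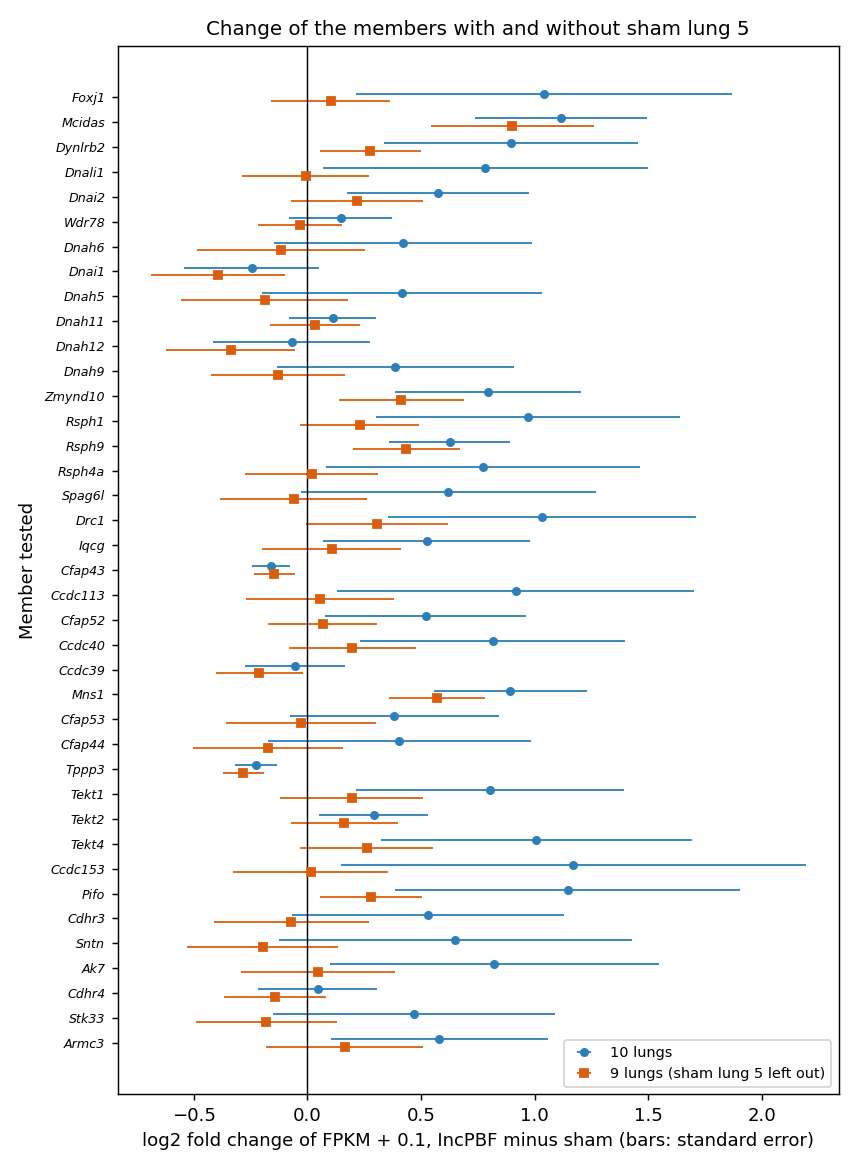
Points are log2 fold changes of FPKM + 0.1, IncPBF minus sham, for the 39 members tested, with standard errors as bars, in all 10 lungs (circles) and without sham lung 5 (squares). The circles have a median of 0.58 and long bars, and the squares lie around 0 with a median of 0.03, with Mcidas farthest to the right at 0.90.

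Mcidas (ENSMUSG00000074651, chromosome 13, 112993845 to 113000394), a coregulator that starts the multiciliated cell program, was at 1.11, 0.808, 0.820, 1.39 and 0.446 FPKM in IncPBF lungs 1 to 5 and at 0.375, 0.491, 0.738, 0.198 and 0.145 FPKM in sham lungs 1 to 5. All but IncPBF lung 5 were above the highest sham lung. The means were 0.915 ± 0.355 and 0.389 ± 0.239 FPKM (SD, n = 5 per group). On the log2 scale the difference was 1.12 (SE 0.38, adjusted p = 0.0425 in limma, exact permutation p = 0.0238, two-sided). Without sham lung 5 it was 0.90 with an adjusted p of 0.0882. The call was also lost when any one of IncPBF lungs 1, 2, 3 and 4 or sham lungs 1 and 4 was left out, in 7 of 10 such fits in all, with adjusted p values of 0.0166 to 0.107 over the 10, and with Xist as a covariate (log2 fold change 1.36, adjusted p = 0.283). Its counts were low, from 6 to 57 fragments per lung.

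The dynein arm members showed no call in either direction. Dynlrb2, a light chain of cytoplasmic and ciliary dynein, was at 15.2, 13.9, 10.7, 20.6 and 10.3 FPKM in the IncPBF lungs and at 10.9, 8.97, 16.7, 9.88 and 1.24 FPKM in the sham lungs. Its log2 fold change was 0.89 (SE 0.56, adjusted p = 0.248 in limma) and 0.28 without sham lung 5. Dnali1, an inner arm light intermediate chain, had 3.23, 3.03, 2.26, 5.35 and 2.39 FPKM in the IncPBF lungs and 2.87, 2.36, 5.33, 2.58 and 0.108 FPKM in the sham lungs. Both genes thus had their highest values in IncPBF lung 4 and sham lung 3. The fold change of Dnali1 was 0.78 in 10 lungs and -0.01 in 9. Dnai1, an outer arm intermediate chain, had the lowest log2 fold change of all members, -0.25 (SE 0.30, adjusted p = 0.562), with 0.930, 0.959, 0.486, 1.29 and 0.727 FPKM in the IncPBF lungs and 1.36, 1.03, 1.72, 0.677 and 0.640 FPKM in the sham lungs. The groups overlapped. Dnai2, the partner of Dnai1, and Wdr78, an inner arm chain, had log2 fold changes of 0.57 and 0.15 in 10 lungs and 0.22 and -0.03 in 9. The heavy chains Dnah5, Dnah6, Dnah9, Dnah11 and Dnah12, which carry the motor domains, had group means of 0.557 to 1.06 FPKM, and the adjusted p values of all 10 dynein members tested were 0.248 or more. Dnah7b, with group means of 0.227 (IncPBF) and 0.168 FPKM (sham), was too low to be tested. Zmynd10, a factor that assembles dynein arms in the cytoplasm, was at 2.11, 1.98, 1.65, 3.24 and 2.06 FPKM in the IncPBF lungs and at 1.67, 1.37, 2.87, 0.958 and 0.351 FPKM in the sham lungs. Its log2 fold change of 0.80 (SE 0.41) had an adjusted p of 0.162 in limma.

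No radial spoke or central pair member was called either. Rsph1, a spoke head protein, was at 5.73, 7.06, 4.46, 9.31 and 4.34 FPKM in the IncPBF lungs and at 4.93, 4.42, 8.12, 3.64 and 0.296 FPKM in the sham lungs. Its log2 fold change was 0.97 in 10 lungs (SE 0.67) and 0.23 in 9. Rsph9, another spoke head protein, had 3.97, 3.60, 3.18, 5.03 and 2.77 FPKM in the IncPBF lungs and 1.77, 2.75, 4.28, 2.38 and 1.33 FPKM in the sham lungs. Sham lung 3 was the only sham lung above the lowest IncPBF lung, and the log2 fold change of 0.63 (SE 0.27) had an adjusted p of 0.0954 in limma and 0.195 without sham lung 5. It is one of the members overlapped on the opposite strand. Rsph4a of the spoke head and Spag6l of the central pair had log2 fold changes of 0.77 and 0.62 in 10 lungs and 0.02 and -0.06 in 9. Spag17, Hydin and Spef2 of the central pair had means of 0.357 to 0.428 FPKM in the 2 groups and were not tested. In the nexin-dynein regulatory complex, Drc1 was at 1.72, 2.01, 1.47, 3.39 and 2.24 FPKM in the IncPBF lungs and at 1.81, 1.03, 3.19, 1.27 and 0.0428 FPKM in the sham lungs. Iqcg of the same complex was lower, at 0.780, 1.05, 0.378, 1.02 and 0.680 FPKM in the IncPBF lungs and 0.696, 0.568, 1.09, 0.484 and 0.0839 FPKM in the sham lungs. Both overlapped between the groups, with log2 fold changes of 1.03 and 0.52 in 10 lungs and 0.31 and 0.11 in 9.

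Mns1, a microtubule inner protein, missed the threshold for an adjusted p. Its values were 1.22, 1.41, 1.15, 1.78 and 1.18 FPKM in the IncPBF lungs and 0.914, 0.782, 1.29, 0.595 and 0.214 FPKM in the sham lungs, so that only sham lung 3 reached into the IncPBF range. The log2 fold change was 0.89 (SE 0.34, adjusted p = 0.0634 in limma, exact permutation p = 0.0317, two-sided) and 0.57 without sham lung 5 (SE 0.21, adjusted p = 0.0715). Mns1 was singled out after its values were seen. Cfap43, a tether protein, was at 5.23, 5.30, 4.82, 5.51 and 4.64 FPKM in the IncPBF lungs and at 5.78, 6.35, 5.84, 4.72 and 5.93 FPKM in the sham lungs, with a log2 fold change of -0.16 (adjusted p = 0.164). Ccdc113, at 2.65, 3.60, 1.72, 5.89 and 1.94 FPKM in the IncPBF lungs and 3.16, 2.39, 3.71, 2.03 and 0.0446 FPKM in the sham lungs, followed the common pattern. Its fold change was 0.92 in 10 lungs and 0.06 in 9. The rulers Ccdc39 and Ccdc40, which set the repeat along the doublet, had log2 fold changes of -0.06 and 0.82 in 10 lungs and -0.21 and 0.20 in 9, none past the threshold. Cfap44, Cfap52 and Cfap53 had 0.40, 0.52 and 0.38 in 10 lungs and -0.18, 0.07 and -0.03 in 9.

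Tppp3 was by far the most abundant member and did not share the pattern of the others. It was at 109, 108, 98.0, 112 and 92.5 FPKM in the IncPBF lungs and at 109, 143, 121, 133 and 104 FPKM in the sham lungs. The groups met at 104 to 112 FPKM. Its log2 fold change was -0.23 (SE 0.09, adjusted p = 0.0835 in limma), and without sham lung 5 it was called lower at -0.28 (SE 0.09, adjusted p = 0.0399). Tekt1 was at 3.73, 3.91, 2.14, 5.47 and 1.87 FPKM in the IncPBF lungs and at 2.75, 2.42, 4.36, 2.00 and 0.248 FPKM in the sham lungs, with log2 fold changes of 0.80 in 10 lungs and 0.19 in 9. Tekt2 and Tekt4 had 0.29 and 1.01 in 10 lungs and 0.16 and 0.26 in 9.

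**Figure D4:**
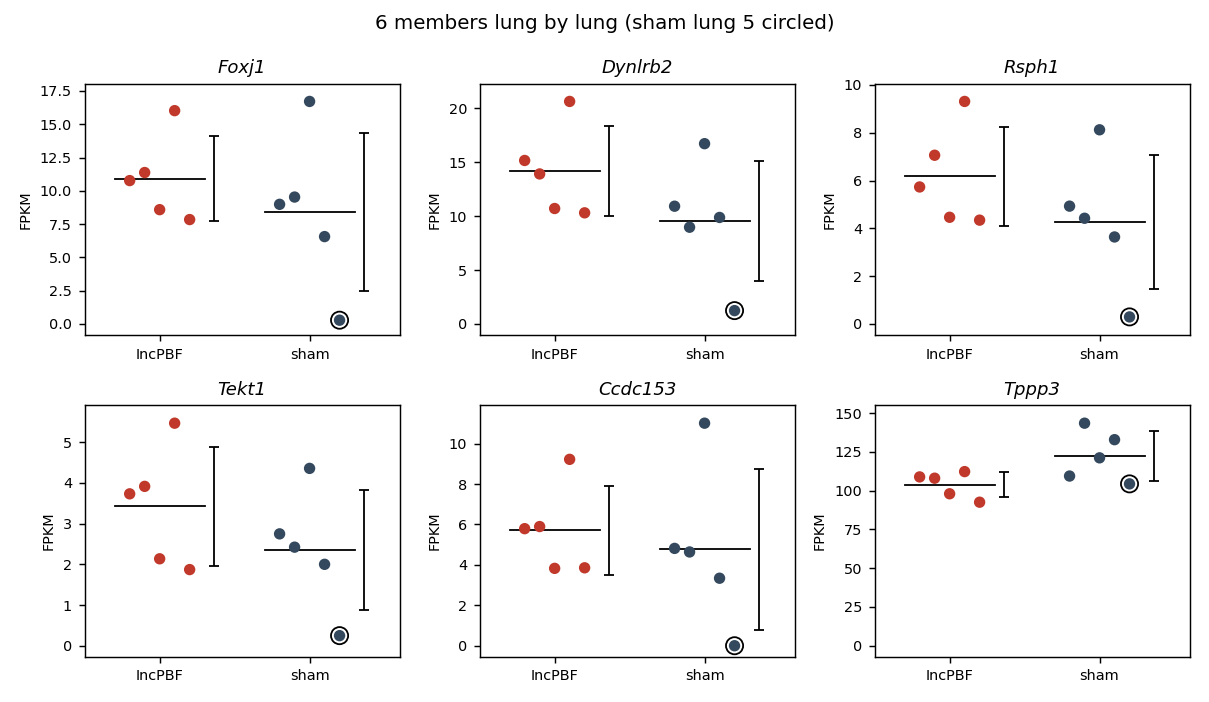
FPKM of 6 members in each lung, with IncPBF lungs in red and sham lungs in dark blue, lines for the group means, bars for the SD (n = 5 per group) and sham lung 5 circled. For Foxj1, Dynlrb2, Rsph1, Tekt1 and Ccdc153 the circled lung lies near 0 and the other 9 lungs overlap, and for Tppp3 it lies at 104 FPKM beside the others.

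Members of the cell surface, of metabolism and of less certain role were not called either. Ccdc153 had the highest log2 fold change of all members, 1.17 (SE 1.02, adjusted p = 0.414 in limma), from 5.79, 5.90, 3.83, 9.22 and 3.86 FPKM in the IncPBF lungs and 4.82, 4.64, 11.0, 3.34 and 0 FPKM in the sham lungs. Without sham lung 5 it was 0.01. Pifo, which acts at the base of the cilium, was at 2.62, 2.51, 1.83, 2.83 and 2.05 FPKM in the IncPBF lungs and at 1.29, 1.79, 3.16, 1.81 and 0 FPKM in the sham lungs, with fold changes of 1.14 and 0.28. Since both have a lung at 0, these fold changes depend on the pseudocount. Ak7, Cdhr3, Cdhr4, Armc3, Sntn and Stk33 had log2 fold changes of 0.04 to 0.82 in 10 lungs and of -0.20 to 0.16 in 9, and none passed the threshold. Ak7 is an adenylate kinase of the axoneme, and Cdhr3 a cadherin of ciliated cells known as a rhinovirus C receptor.

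Genes upstream of the axoneme, which build multiciliated cells, were read in the same fit. Their count of calls was not tested against the share of all genes. Of 20 regulators of multiciliogenesis, 17 were tested, 4 were called higher and none lower, and the same 4 had groups that did not overlap, beside 16.1% of all genes called higher and 12.0% without overlap and higher. These were Tfdp1, a partner of E2F factors, with a log2 fold change of 0.36 (adjusted p = 0.00100), Ccno, a cyclin of the deuterosome pathway, with 0.98 (adjusted p = 0.0226), Plk4, the kinase that starts centriole duplication, with 0.43 (adjusted p = 0.00716), and Stil, a centriole assembly factor, with 0.95 (adjusted p = 0.00567), all in limma. Tfdp1, Plk4 and Stil also serve dividing cells. The other 3 genes with the highest mean FPKM in the list, E2f4, Cetn2 and Pcm1, had log2 fold changes of -0.01, 0.06 and -0.17 and were not called. Without sham lung 5, 5 of the 17 were called higher (13.5% of all genes), with Deup1, the scaffold of the deuterosome, added at 0.75 (adjusted p = 0.0349). With Xist added to the model as a covariate none of the 17 was called, and neither were any members, where 2.13% of all genes were called higher and 2.68% lower. The log2 fold changes in that model were 0.34 for Tfdp1, 1.23 for Ccno, 0.40 for Plk4 and 0.96 for Stil. IncPBF lung 1 was the only IncPBF lung with low Xist, so these values rest largely on that lung. The part of sex in them was not tested. Ccno, Plk4, Stil, Deup1 and Cdc20b are named here after their values were seen.

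Mcidas lies between Ccno and Cdc20b on chromosome 13, and all 3 had higher means in the IncPBF group. Ccno (112987802 to 112990777), Mcidas and Cdc20b (113035111 to 113091195) lie on the plus strand within 103394 bases, and the gaps between them are 3068 and 34717 bases. Ccno was at 2.47, 1.88, 1.91, 1.86 and 1.77 FPKM in the IncPBF lungs and at 1.26, 0.935, 1.48, 1.13 and 0.360 FPKM in the sham lungs. Cdc20b, which acts in the release of centrioles from deuterosomes, was at 0.821, 0.730, 0.474, 1.05 and 0.369 FPKM in the IncPBF lungs and at 0.396, 0.174, 0.320, 0.0859 and 0.0314 FPKM in the sham lungs. Its mean was below the filter, and the exact permutation p was 0.0159 (two-sided), where the smallest possible is 0.00794. IncPBF lung 1, whose Xist was as low as that of the sham lungs, was above every sham lung in all of Ccno, Mcidas and Cdc20b. A single lung cannot tell the surgery from sex, and the part of sex in these genes was not tested. Gpx8, which lies inside Cdc20b on the opposite strand, was itself called higher, and its range was 49.1 to 55.9 FPKM with the fistula and 32.0 to 49.1 FPKM without it (log2 fold change 0.44, adjusted p = 0.0113). In sham lung 5, Gpx8 was at 32.0 FPKM while Cdc20b had 1 fragment. Dhx29 and Skiv2l2, the next tested genes before Ccno, had log2 fold changes of 0.03 (adjusted p = 0.811) and 0.07 (adjusted p = 0.399) and were not called.

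**Figure D5:**
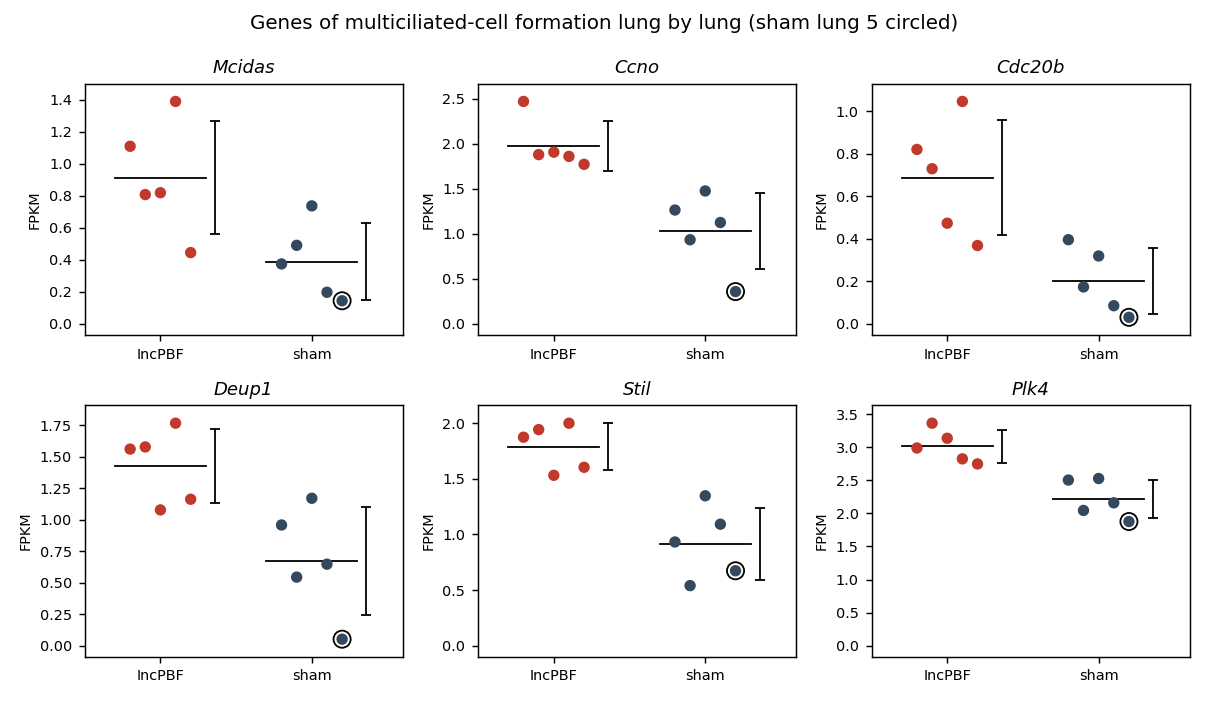
FPKM of Mcidas and 5 further genes of multiciliated cell formation in each lung, drawn as red points for the IncPBF group and dark blue for the sham group, with group means, SD bars (n = 5 per group) and sham lung 5 circled. The groups do not overlap for Ccno, Stil and Plk4, and they overlap for Mcidas, Cdc20b and Deup1.

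Set against Foxj1 in the same lung, Mcidas, Deup1 and Cdc20b stood higher in the IncPBF group, a comparison chosen after the values were seen and made in the 9 lungs other than sham lung 5. Mcidas was at 5.69 to 10.3% of Foxj1 in the IncPBF lungs and at 3.02 to 5.15% in sham lungs 1 to 4. Deup1 was at 11.0 to 14.8% and 5.72 to 10.7%, and Cdc20b at 4.70 to 7.62% and 1.31 to 4.41%. The ranges did not overlap for any of these genes, as was the case for 0.929% of all genes tested, to which Cdc20b does not belong. Foxj1 ran from 6.56 to 16.7 FPKM in these 9 lungs. The ratio of a gene that does not vary with Foxj1 spreads with it and can hardly separate the groups. This share is therefore not a fair background for genes of ciliated cells. Sham lung 5, left out here, went the other way. With only 13 Foxj1 fragments, it had Mcidas at 50.9%, Deup1 at 18.3% and Cdc20b at 11.0% of Foxj1, each above every IncPBF lung. For Ccno the ranges overlapped, at 11.6 to 22.9% and 8.84 to 17.2%. Of the 38 members so compared, 34 had ranges that overlapped, such as Rsph1 (52.0 to 62.1% and 46.4 to 55.5%), Tekt1 (23.9 to 34.7% and 25.4 to 30.6%) and Ccdc153 (44.6 to 57.6% and 48.7 to 65.9%). Besides Mcidas, Mns1 stood higher in the IncPBF lungs, at 11.1 to 15% and 7.71 to 10.2%. Dnah12 (5.21 to 6.50% and 6.68 to 11.8%) and Dnai1 (5.67 to 9.27% and 10.3 to 15.2%) stood lower, as did 0.695% of all genes tested, a share with the same limit. With log2(Foxj1 FPKM + 0.1) as a covariate in these 9 lungs, Mcidas (0.79, adjusted p = 0.0284) and Mns1 (0.50, adjusted p = 0.0191) were called higher and Tppp3 lower (-0.29, adjusted p = 0.0462). The share of all genes called with that covariate is not given here.

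Further genes of the axoneme were low in sham lung 5 as well. Of 70 other axonemal genes, 49 were tested, and none was called in either direction, beside 16.1% of all genes called higher and 16.2% lower. Their median coefficients of variation were wide (27.3% in the IncPBF and 58.4% in the sham group), which makes calls less likely. At an unadjusted p under 0.05 there was 1, Ccdc65 of the nexin-dynein regulatory complex. Their median log2 fold change was 0.48 in 10 lungs and 0.11 without sham lung 5, where 26 of the 70 had 3 fragments or fewer. Lrrc23, Tmem212 and Fam183b, of the 4 with the highest mean FPKM, had 0.232, 0.0802 and 0.101 FPKM in sham lung 5 and 3.05 to 12.2 FPKM in the other 9. Dnaaf5, the highest of all, had 5.95 FPKM there and 5.62 to 7.40 FPKM elsewhere.

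Intraflagellar transport genes, which build motile and primary cilia alike, did not share the size of the members' drop in sham lung 5. All 31 were tested, with a median log2 fold change of 0.04, and none was under 25% of the median of sham lungs 1 to 4 in sham lung 5. The order of the lungs was shared in part. Sham lung 5 was lowest for 10 of the 31 (32.3%), against 14.1% of all genes. Sham lung 4 or IncPBF lung 3 was the lowest of the other 9 for 17 (54.8%), against 19.2% of all genes. Ift81 was the 1 gene called higher (0.37, adjusted p = 0.0188 in limma) and Bbs9 the 1 called lower (-0.41, adjusted p = 0.00322). Both are named after their values were seen. Over all genes, 16.1% were called higher and 16.2% lower. Ift20, Ift43, Kifap3 and Dync2li1, the highest in mean FPKM, had log2 fold changes of 0.15, 0.20, 0.04 and 0.34 and were not called. Among paralogs of the members, Dynlrb1, the widely expressed relative of Dynlrb2, was called higher at 100 ± 7.14 FPKM against 81.3 ± 8.0 (SD, n = 5 per group, log2 fold change 0.31, adjusted p = 0.0113), without overlap. Of all genes, 12.0% were higher without overlap. Tppp, the relative of Tppp3, had -0.28 (adjusted p = 0.0788). Dnah7a, Dnah7c, Spag6 and Rsph6a were below the filter, with at most 0.278 FPKM in any lung, and how reads shared with Dnah7b and Spag6l were divided is not given.

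Most club and airway secretory genes had their highest lung, and their lowest outside sham lung 5, in common with most members. Not all of them were low in sham lung 5. Of the 15 tested, 2 were called lower and none higher in 10 lungs (16.2% of all genes lower), and 4 were called lower in 9 (13.0% of all genes). Cbr2, a carbonyl reductase, was among those added in 9 lungs, at -0.46 (adjusted p = 0.0297). Scgb1a1, Scgb3a2 and Retnla had log2 fold changes of 0.96, 1.17 and 2.86 in 10 lungs and -0.19, 0.05 and 1.95 in 9, and were not called. All 4 mesothelial genes tested (Msln, Upk3b, Rspo1 and Lrrn4) were called lower in 10 lungs, with log2 fold changes of -1.76 to -0.73, and 2 of them without sham lung 5, where 16.2% and 13.0% of all genes were called lower. All 8 alveolar type 1 genes were also called lower in 10 lungs, and 7 of them in 9.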

How the data were processed

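Total RNA of 5 IncPBF and 5 sham lungs was made into NEBNext libraries and sequenced on a NovaSeq instrument. Per gene and lung, the deposited values are FPKM computed by the authors, with gene lengths in bases beside them. The submitters' processing notes name Bowtie 0.12.2 and mouse and human builds without a role, and the counting software is not given in the sources used here. Column names of the 5 IncPBF lungs differ from the titles in their abbreviation, so these columns were matched to the group and not to single samples. Of the 43 members, 39 had the same position in GENCODE M21 on GRCm38. In each lung, 100% of values times length were whole multiples (tolerance 0.02) of the value of 1 fragment, so whole fragments were recovered, 16103423 to 20318525 per lung.

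The test was limma 3.58.1 (R 4.3.3, lmFit and trended eBayes) of the IncPBF lungs against the sham lungs, without covariates, for the 15388 genes with a mean of at least 0.5 FPKM. Values entered as log2(FPKM + 0.1), and p values were adjusted by Benjamini-Hochberg with a threshold of 0.05. Fold changes are on this scale and understate the change of low genes. An exact permutation test of all 252 ways to split the lungs was added for single genes. On simulated data for this comparison with 200 genes changed 2-fold among 15388, 84.0% were recovered, with 6 false calls among 174. Recovery was not tested for the members themselves. Their median coefficients of variation were 29.4% (IncPBF) and 64.8% (sham), where all genes tested had 9.12% and 11.8%. Python 3.11.15 with pandas 2.3.3 made the tables, and matplotlib 3.10.9 drew the figures.

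The members, lists and tests were chosen with earlier results of these data known. All members may be named. Values lung by lung are for Foxj1, the 2 members of each role with the highest mean FPKM, and the 3 largest rises and falls. From other lists up to 4 genes with the highest mean FPKM are named, with exceptions stated. Alternatives were the pseudocount, the filter, the scaling, the replicate block, a Xist covariate, lungs with low Xist, limma-voom on recovered fragments, and each lung left out. A Foxj1 covariate was added after the data were seen.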

Additional observations from a re-analysis of the deposited data

Results flagged for a closer look

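On the scale tested, log2(FPKM + 0.1), sham lung 5 lay farther below the other 4 sham lungs than Dixon's 95% limit allows in 7 of the 16 members described lung by lung. Its values were -1.38 for Foxj1, 0.42 for Dynlrb2, -2.27 for Dnali1, -1.34 for Rsph1, -2.79 for Ccdc113, and -3.32 for both Ccdc153 and Pifo, which had no fragment there. About 1 in 20 groups passes this limit by chance, and these members vary together. No IncPBF lung passed it.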

How the results depend on the processing

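The members called higher, 1 in the fit as reported, numbered 2 with a pseudocount of 1 and with limma-voom on recovered fragments (Mcidas and Mns1 each time), 0 with a filter at 1 FPKM (Mcidas is then not tested), with no filter, with the Xist covariate and in lungs with low Xist (1 IncPBF lung, assumed to vary like the sham lungs), 2 with the Foxj1 covariate in 9 lungs, and 0 to 4 with 1 lung left out (4 without sham lung 3). With quantile normalization and with the Foxj1 covariate in 10 lungs the count stayed at 1, but the gene was Mns1. Members called lower, 0 as reported, numbered 1 under the replicate block and both Foxj1 covariates (Tppp3 each time), and 0 to 1 with 1 lung left out. Regulators called higher, 4 as reported, numbered 0 with the Xist covariate and with low Xist, and 3 to 7 with 1 lung left out, with 0 to 1 called lower. Other axonemal genes, 0 as reported, had 1 higher with limma-voom and with the Foxj1 covariate in 9 lungs, 1 lower with that covariate in 10, and 0 to 1 higher with 1 lung left out. Intraflagellar transport genes, 1 higher and 1 lower as reported, had 5 higher with an equal total per lung, 6 with limma-voom, 0 higher and 0 lower with the Xist covariate and with low Xist, and 1 to 2 higher with 1 lung left out. The shares of all genes called are not given for most of these settings, and the cause was not tested.

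The median log2 fold change of the members was 0.20 to 0.86 under the other pseudocounts, filters and scalings, the replicate block, limma-voom, the Xist covariate and the lungs with low Xist, 0.03 to 0.86 with 1 lung left out, and -0.06 and -0.07 with the Foxj1 covariate in 10 and 9 lungs. Without sham lung 5, 12 of the 39 members went from above 0 to below 0, and none the other way. Among the 16 described lung by lung, the fold changes that changed sign under any alternative, none of them called, were those of Dnali1 (-0.0072 without sham lung 5 within a range of -0.0072 to 1.17 with 1 lung left out, -0.10 with either Foxj1 covariate), Ccdc113 (-0.047 and -0.049) and Ccdc153 (-0.11 and -0.12).

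Lungs of the same number did not deviate together (correlations of -0.0675 to 0.0854, with 2 of 5 IncPBF lungs closest to the sham lung of their number), so the numbers do not pair them. With the replicate block 1 member was called higher (Mcidas) and 1 lower.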
